A study of Homo sapiens with 6 samples.

Results

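The steady-state transcriptome of 786-O was described from its input libraries alone. 786-O is an established human cell line grown from a clear cell renal carcinoma. Its input libraries, chosen by the sample titles that mark them as input, are 3 of the 6 samples of the series. The study set RNA recovered with the RNA-binding protein IGF2BP2 against such input, in work on m6A and TGF-β-SMAD signalling, and the recovered libraries were not analysed here. All 3 input libraries came from unmodified 786-O cells in RPMI1640 with 10% fetal bovine serum, with no drug, knockdown or hypoxia named for them. The labels give the RNA as polyadenylated RNA. They number the libraries 1 to 3 without saying whether these came from separate cultures, so the spread given below may be technical. A level in 1 cell line speaks for that line, and there was no other cell type or condition among these libraries to set it against.

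In a normal cell the VHL protein marks the hypoxia-inducible factors HIF-1α (HIF1A) and HIF-2α (EPAS1) for destruction when oxygen is present. VHL recognises them after prolyl hydroxylases of the EGLN family have modified them. Clear cell renal carcinoma typically loses VHL, and the HIF target genes for glucose uptake, glycolysis, angiogenesis and lipid storage are then active in oxygen. The tumour is thought to arise from the proximal tubule, the nephron segment that takes back glucose, amino acids, phosphate and filtered protein. 786-O lacks functional VHL protein and is known for making HIF-2α but no functional HIF-1α protein.

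Levels are given in FPKM, the reads of a gene scaled to the length of the gene and to the total of the library, so that genes of different length can be set beside each other. A gene counts as expressed at 1 FPKM or more in every library and silent below 0.1 FPKM in every library. The libraries held 26345064, 27226405 and 25773819 reads in genes. At this depth a gene without a read could still stand at up to 0.114, 0.110 and 0.116 CPM, reads scaled to the library total alone, in libraries 1, 2 and 3, the limit that 3 reads allow, which covers counting error only.

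Library 1 stood slightly apart. Pearson's r of log2(FPKM + 1) across genes, which are not independent replicates, was 0.9986 between libraries 1 and 2, 0.9986 between 1 and 3 and 0.9989 between 2 and 3. The share of reads placed on different genes was 3.29% and 3.04% in the pairs with library 1 and 1.69% between libraries 2 and 3. A chi-square of the counts per gene was 7.94, 8.46 and 3.69 in the same order, against 1 for counting error alone, so no pair agreed within sampling noise. This does not tell separate cultures from separate preparations of 1 culture. Library 2 held more reads of proximal tubule genes at trace level than the other libraries, with the values given beside those genes.

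Of the 20020 genes in the table, 10286 (51.4%) were expressed, 6579 (32.9%) were silent and 3155 lay between. No read fell on 3083 genes. Expressed genes held 99.7% of all FPKM. The levels formed a main peak near 10 FPKM and a lower shoulder below 0.1 FPKM. Among expressed genes, 5637 had a mean under 10 FPKM, 4221 a mean of 10 to under 100 FPKM and 398 a mean of 100 to under 1000 FPKM. The 30 genes at 1000 FPKM or more held 41.6% of all FPKM.

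**Figure D1:**
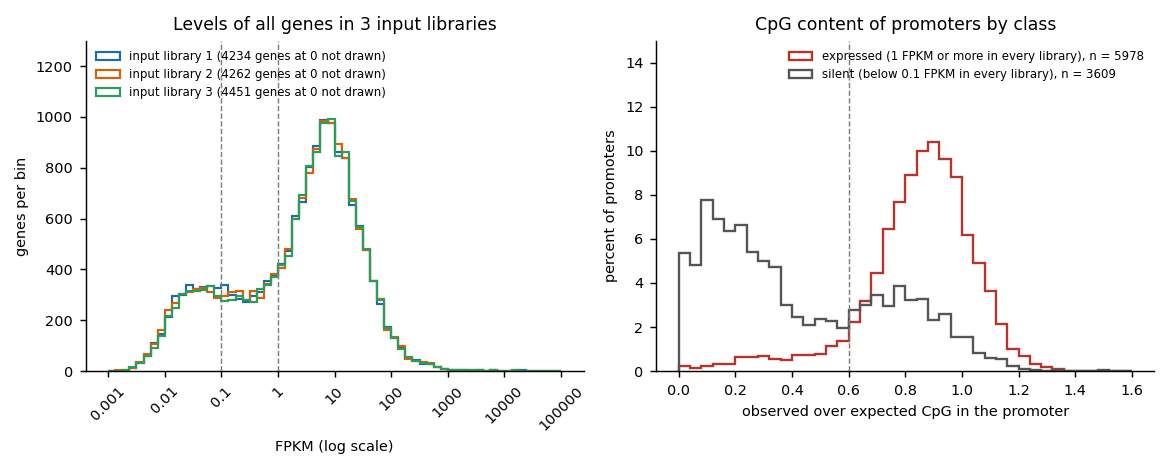
Left, the number of genes per bin of FPKM (log axis) in each of the 3 input libraries, with dashed lines at 0.1 and 1 FPKM; the 3 outlines nearly coincide, with a peak near 10 FPKM and a shoulder below 0.1 FPKM. Right, the percent of promoters per bin of observed over expected CpG, for expressed and silent genes, with a dashed line at 0.6; 91.0% of promoters of expressed genes and 32.9% of those of silent genes lie at or above it.

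Mitochondrially encoded mRNAs dominated the libraries. The 13 mRNAs of the mitochondrial genome, which encode subunits of the respiratory chain and of ATP synthase, took 13.9%, 12.5% and 12.6% of the reads and 34.6%, 32.0% and 32.4% of all FPKM. MT-CO2, a subunit of cytochrome c oxidase, was the highest gene of all at 22188, 22422 and 22477 FPKM (22362 ± 153, SD, n = 3). MT-ND4, a complex I subunit, followed at 19850, 17154 and 17624 FPKM, and MT-CO1, another oxidase subunit, at 18610, 15836 and 16158 FPKM. Library 1 was the highest of the 3 for 11 of these 13 mRNAs, MT-CO2 and MT-ND3 being the exceptions. MT-ND6 read 6461 ± 553 FPKM (SD, n = 3), close to MT-ND5 at 6471 ± 521 FPKM. MT-ND6 lies on the strand opposite to the other mitochondrial mRNAs, and its value is uncertain because no source used here says whether counting used strand.

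The first nuclear gene came 12th. TMSB10, a thymosin that binds free actin, had 5181, 5578 and 5344 FPKM. GAPDH, the glycolytic dehydrogenase, had 3740, 3984 and 3894 FPKM and came 13th. These levels did not overlap. Next among nuclear genes came LGALS1, a secreted galectin, at 2705, 2873 and 2739 FPKM and ACTB, cytoplasmic actin, at 2721, 2775 and 2752 FPKM, whose ranges overlapped. FTL, the ferritin light chain, had 2240, 2457 and 2374 FPKM. VIM, the mesenchymal intermediate filament, had 2115, 2014 and 2039 FPKM, and AKR1B1, aldose reductase, had 1864, 1930 and 1886 FPKM. The remaining genes of the 20 highest were the mitochondrial mRNAs MT-ATP6, MT-CO3, MT-ND2, MT-ND1, MT-ND4L, MT-CYB and MT-ATP8, which ranged from 3585 to 14534 mean FPKM.

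The 10 highest genes held 29.6% of all FPKM, the 100 highest 50.7 ± 0.888% and the 1000 highest 73.7 ± 0.476% (SD, n = 3). The share of the 100 highest was 28.1% without the mitochondrial mRNAs and 28.3% when taken over reads. By class, the 100 highest were 13 mitochondrial mRNAs, 28 ribosomal protein genes, 10 histone genes and 49 others. The 28 ribosomal protein genes held 4.72% of all FPKM, led by RPS2 at 1846 ± 77.4 FPKM. The 49 others held 11.8%. They included actin, tubulin and thymosin genes, chaperones such as HSP90AB1 (587 ± 5.66 FPKM), translation factors such as EEF2 (547 ± 14.4 FPKM) and 6 glycolytic genes. SCD, the desaturase that makes monounsaturated fatty acids, stood among them at 431 ± 11.5 FPKM, as did CAV1, the coat protein of caveolae, at 410 ± 7.71 FPKM. CD24, a glycosylated surface protein of renal progenitors, had 1447, 1437 and 1435 FPKM.

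Histone mRNAs were abundant although the labels name polyadenylated RNA. Replication-dependent histone mRNAs end in a stem-loop and mostly carry no poly(A) tail. Of 79 histone genes 62 were expressed, and together they held 2.49%, 2.79% and 2.62% of all FPKM. H3C2, a core histone H3 gene, had 776, 864 and 818 FPKM, and H1-2, a linker histone gene, had 656, 690 and 658 FPKM. H3C14 and H3C15 read 504 ± 12.1 and 509 ± 12.7 FPKM and H4C14 and H4C15 read 481 ± 27.1 and 482 ± 27.0 FPKM (SD, n = 3). Members of each of these pairs are near-identical copies whose reads counting could split, so their separate values are uncertain.

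**Figure D2:**
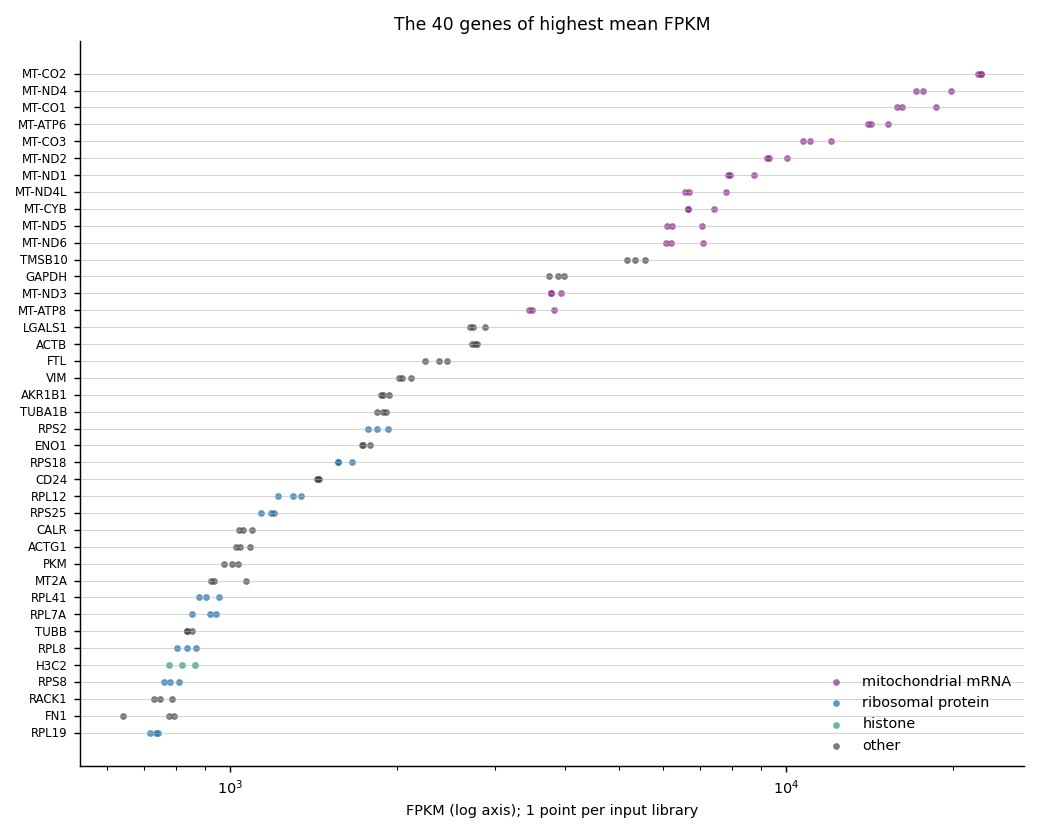
FPKM (log axis) of the 40 genes of highest mean FPKM, 1 point per input library, coloured by class. Mitochondrial mRNAs take the first 11 places, TMSB10 is the first nuclear gene, and FN1 has 1 library (641 FPKM) set off from the other two (777 and 792 FPKM).

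Of 85 cytosolic ribosomal protein genes, 79 were expressed and 55 reached 100 FPKM, with a median of 200.2 FPKM. A few that every cell needs read far lower. RPS10 had 0.394, 0.734 and 0.713 FPKM from 13, 25 and 23 reads, and RPL36A had 0.303, 0.352 and 0.155 FPKM. RPS10 and RPL36A each also have a read-through gene in the table, a row that joins a gene to its neighbour. The table holds 115 such rows, of which 81 had no read and which together had at most 570 reads in a library. Among the 228 genes that such rows join, 93 (40.8%) were expressed, against 51.4% of all genes, and 72 were silent. NME2, a nucleoside diphosphate kinase, read 0.0568 FPKM and UBE2V1, a partner of a ubiquitin-conjugating enzyme, read 0.257 FPKM in this group. How reads in 2 overlapping genes were counted is a setting that the labels do not record, so a low value of a gene with a read-through row is uncertain.

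The HIF system was expressed with few exceptions. Of its 16 listed genes 14 were expressed (87.5%, against 51.4% of all genes). HIF1A had 86.0, 82.6 and 82.0 FPKM, and EPAS1 had 61.9, 63.7 and 65.4 FPKM. The ranges did not overlap, and the EPAS1 level was 0.763 ± 0.0390 times the HIF1A level (SD, n = 3). In reads, without regard to gene length, the ratio was 0.918, so its size depends on the gene lengths used. VHL mRNA was present at 10.2, 9.52 and 9.89 FPKM, which says nothing of the protein.

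ARNT, the partner that both factors need on DNA, had 14.4, 12.96 and 13.7 FPKM and its relative ARNT2 1.61 ± 0.176 FPKM. The subunits that join VHL in its ubiquitin ligase were all expressed, with ELOC at 16.9, ELOB at 12.9, CUL2 at 11.4 and RBX1 at 24.3 FPKM. Among the prolyl hydroxylases, EGLN3, itself known as a HIF target, was the highest at 6.65, 7.07 and 7.06 FPKM, followed by EGLN1 at 2.75, 2.67 and 2.53 FPKM. EGLN2 read 0.0748 FPKM, but it shares sequence with a read-through gene and its value is uncertain. HIF1AN, the asparaginyl hydroxylase of HIF, had 4.03 ± 0.160 FPKM. HIF3A, a further alpha subunit, had 1, 4 and 0 reads and was silent.

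Of 59 listed HIF target genes 49 were expressed (83.1%) and 14 had a mean of 100 FPKM or more. Their median was 21.9 FPKM, against 1.36 FPKM over all genes. Which of them need HIF in these cells cannot be read from levels in 1 condition.

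Promoter sequences of 4 of these genes are printed because they show the short core of the hypoxia response element beside genes of very different level. They come from RefSeq on GRCh38.p14, run 5′ to 3′ on the gene's own strand and cover 250 bases before to 50 bases after the start. Capitals mark ACGTG and GCGTG on either strand, so that CACGT and CACGC mark the opposite strand.
ENO1 (chr1:8878637-8878936, minus strand): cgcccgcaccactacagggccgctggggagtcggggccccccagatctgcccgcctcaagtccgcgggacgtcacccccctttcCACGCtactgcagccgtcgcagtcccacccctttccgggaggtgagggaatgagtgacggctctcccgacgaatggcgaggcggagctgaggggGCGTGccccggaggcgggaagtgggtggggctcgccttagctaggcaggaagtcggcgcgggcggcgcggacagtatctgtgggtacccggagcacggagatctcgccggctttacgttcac
DDIT4 (chr10:72273674-72273973, plus strand): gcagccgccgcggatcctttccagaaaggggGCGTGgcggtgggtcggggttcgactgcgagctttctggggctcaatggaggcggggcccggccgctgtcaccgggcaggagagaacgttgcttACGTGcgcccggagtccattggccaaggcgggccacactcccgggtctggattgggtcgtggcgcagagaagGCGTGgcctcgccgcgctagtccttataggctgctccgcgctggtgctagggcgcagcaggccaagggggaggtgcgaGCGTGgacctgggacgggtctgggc
SLC2A1 (chr1:42958819-42959118, minus strand): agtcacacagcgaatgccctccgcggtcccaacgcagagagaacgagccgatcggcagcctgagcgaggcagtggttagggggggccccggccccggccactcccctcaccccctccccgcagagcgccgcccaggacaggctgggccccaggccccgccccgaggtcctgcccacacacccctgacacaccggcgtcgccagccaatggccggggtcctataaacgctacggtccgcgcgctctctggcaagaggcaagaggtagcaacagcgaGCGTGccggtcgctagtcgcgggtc
CA9 (chr9:35673678-35673977, plus strand): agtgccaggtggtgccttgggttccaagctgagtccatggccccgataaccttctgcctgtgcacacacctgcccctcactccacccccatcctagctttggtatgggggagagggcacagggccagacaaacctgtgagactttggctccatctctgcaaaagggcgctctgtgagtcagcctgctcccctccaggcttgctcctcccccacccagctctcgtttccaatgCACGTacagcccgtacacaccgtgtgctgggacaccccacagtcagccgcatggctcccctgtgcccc
ENO1 held 2 such matches, DDIT4 4, SLC2A1 1 and CA9 1. A match is a short word and not a shown binding site. It was found in the promoters of 90.9% of the 22 expressed HIF targets with a single listed promoter, against 66.4% of 5978 expressed genes and 55.8% of all 11366 matched genes.

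Glucose uptake and glycolysis genes were among the highest HIF targets. ENO1, the enolase whose promoter held both orientations of the core, had 1727, 1786 and 1735 FPKM. LDHA, which turns pyruvate to lactate, had 629, 637 and 630 FPKM, and exceeded LDHB 18.8 ± 0.455 times. SLC2A1, the glucose transporter GLUT1, had 296, 284 and 282 FPKM and exceeded its relative SLC2A3 17.2 ± 0.380 times. PGK1 (110 ± 5.27 FPKM) and the lactate exporter SLC16A3 (91.6 ± 0.932 FPKM) followed. The pyruvate dehydrogenase kinases PDK3 and PDK1 were low, at 3.48 ± 0.269 and 2.15 ± 0.121 FPKM. ALDOA, an aldolase, read 9.73 ± 0.0923 FPKM, far below the glycolytic genes TPI1 (538 FPKM) and GAPDH (3873 FPKM). Whether the unrecorded counting of overlapping genes lowered the ALDOA value was not tested, so it is uncertain.

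PLIN2, the coat protein of the lipid droplets that give clear cells their look, had 108, 110 and 112 FPKM. HILPDA, which inhibits lipolysis, had 12.3 ± 0.339 FPKM. BNIP3 (53.0 ± 1.26 FPKM) and BNIP3L (29.98 ± 0.638 FPKM), receptors for mitophagy, were both expressed. COX4I2, the hypoxic oxidase subunit, had no read in any library, and NDUFA4L2, a mitochondrial gene reported high in clear cell tumours, had 13, 14 and 19 reads (0.442 ± 0.103 FPKM).

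Secreted and surface HIF targets spanned a wide range. IGFBP3, a binding protein of IGFs, had 271, 261 and 262 FPKM, and AXL, a receptor tyrosine kinase, had 221, 217 and 218 FPKM. VEGFA, the main endothelial growth factor, had 127, 129 and 128 FPKM and exceeded VEGFC 8.70 ± 0.412 times. MET reached 103 ± 5.26 FPKM, LOXL2 105 ± 1.74 FPKM and TGFA, an EGFR ligand tied to HIF-2α, 53.4 ± 0.496 FPKM.

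CA9, the carbonic anhydrase used as a marker of clear cell tumours, had only 5.55, 4.82 and 5.77 FPKM. Its relative CA12 had 24.2, 23.2 and 22.4 FPKM, 4.35 ± 0.465 times as much. LOX stood near the threshold at 1.33 ± 0.149 FPKM. EPO, the classic target in kidney interstitial cells and liver, had 4, 9 and 3 reads, CXCR4 11, 5 and 5 reads, and KDR and FLT1, receptors of endothelial cells, 0.149 and 0.0505 FPKM.

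In the signalling group, DDIT4, an inhibitor of mTORC1 and the promoter with the most cores printed above, had 322, 336 and 326 FPKM. BHLHE40, a transcriptional repressor, had 163, 165 and 167 FPKM and its relative BHLHE41 51.9 ± 1.79 FPKM. CCND1, cyclin D1, known as a HIF-2α target in renal cells, had 111, 103 and 105 FPKM, and NDRG1 had 103 ± 1.61 FPKM. Their ranges overlapped. POU5F1, also reported as a HIF-2α target, had 3.34 ± 0.748 FPKM, and FABP7 had 1 read in each library.

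**Figure D3:**
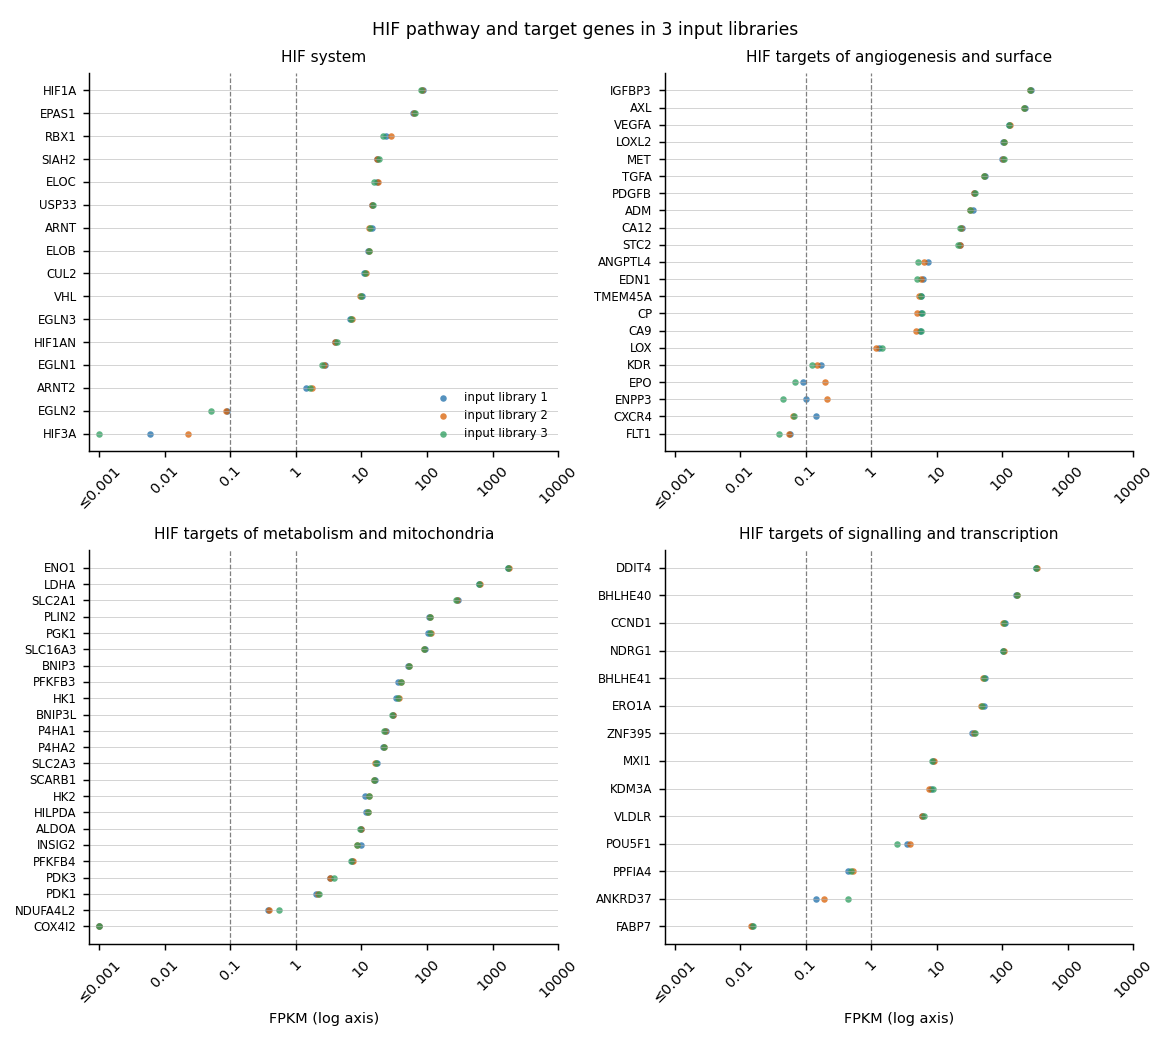
FPKM (log axis) of genes of the HIF system and of 3 groups of HIF targets, 1 point per input library, with dashed lines at 0.1 and 1 FPKM and points at or below 0.001 drawn at the left edge. Points of a gene nearly coincide above 10 FPKM, HIF1A and EPAS1 lead the system, and ENO1, LDHA and DDIT4 are among the highest of the targets.

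Of 28 renal lineage transcription factors 14 were expressed, a share close to the 51.4% of all genes, and their median of 1.19 FPKM was near that of all genes (1.36 FPKM). PAX8, the renal and thyroid lineage factor kept by most renal carcinomas, had 104, 110 and 108 FPKM and stood at rank 393. PAX2 had 5.07, 5.52 and 5.85 FPKM, and the PAX8 level was 19.7 ± 1.05 times that of PAX2. HOXB7 (12.5 FPKM), SALL1 (9.99 FPKM), WT1 (3.66 FPKM) and LHX1 (3.20 FPKM), factors of the embryonic kidney, were expressed. HNF4A, which drives the mature proximal tubule programme, was silent with 8, 5 and 3 reads. EMX2, FOXI1 and TFAP2B had no read.

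Most functions of the mature proximal tubule were not expressed, with 9 of 34 listed genes at the threshold. The highest were brush-border peptidases and scaffolds. ANPEP, aminopeptidase N, had 38.0, 37.3 and 38.0 FPKM, DAB2, an endocytic adaptor, 36.7, 37.0 and 37.2 FPKM, PDZK1, a scaffold of transporters, 28.9, 31.3 and 27.9 FPKM, and DPP4, a peptidase, 27.9, 25.4 and 24.0 FPKM. The basolateral bicarbonate transporter SLC4A4 had 12.8 ± 0.507 FPKM. SLC22A6, the organic anion transporter OAT1, and FABP1 had no read.

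Several of the tubule genes at trace level were highest in library 2. LRP2, the endocytic receptor megalin, had 24, 112 and 18 reads, CUBN, its partner cubilin, 44, 126 and 36 reads, and SLC22A2, the organic cation transporter, 1, 29 and 2 reads. SLC34A1, the phosphate transporter, had 6, 15 and 3 reads. Over the 25 listed genes that were not expressed, the summed reads were 265, 558 and 221, or 10.1, 20.5 and 8.57 CPM. Of these 25 genes 14 were highest in library 2, and the defining tubule genes SLC22A6 and FABP1 stood at 0 there too. All 3 libraries put these genes below 1 FPKM, except MIOX at 1.12 FPKM in library 2, and without library 2 the list still counted 9. What raised these reads in library 2 was not tested.

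Markers of injured or dedifferentiated tubule and of renal carcinoma were far higher, with a median of 60.5 FPKM. Of 23 such genes 19 were expressed (82.6%, against 51.4% of all genes). SPP1, osteopontin, had 429, 426 and 413 FPKM. CD70, a TNF family ligand frequent on clear cell tumours, had 217, 225 and 226 FPKM. VCAM1, an adhesion molecule, had 155, 150 and 150 FPKM.

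HAVCR1, the kidney injury molecule KIM-1, had 148, 137 and 138 FPKM, and NNMT, nicotinamide N-methyltransferase, had 111, 115 and 113 FPKM. CDH6, a cadherin of the developing tubule, had 64.3, 58.2 and 59.2 FPKM. The simple-epithelium keratins KRT19, KRT8 and KRT18 had 97.6, 93.3 and 43.9 FPKM. KRT7, a keratin of other renal tumours, had 0.378 FPKM, AMACR, a marker of papillary tumours that also has a read-through row, was silent with 1, 7 and 2 reads, and LCN2, an injury marker, had 1 read in library 3 alone.

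Other nephron segments were nearly absent. Of 25 genes of the loop, distal tubule and collecting duct, 1 was expressed, the sodium channel subunit SCNN1A at 16.3, 15.7 and 15.2 FPKM, and by TPM or CPM 2 passed 1. UMOD, the uromodulin of the thick ascending limb, SCNN1G, AVPR2, PVALB and TRPV5 had no read, and AQP2 and SLC12A1 had 1 read each. Of 11 genes of podocytes and parietal cells, 4 were expressed, SYNPO (69.2 ± 1.97 FPKM), CLDN1 (65.5 ± 1.90 FPKM), PAX2 and PODXL (3.74 ± 0.289 FPKM), while nephrin (NPHS1), which defines podocytes, had 1 read.

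**Figure D4:**
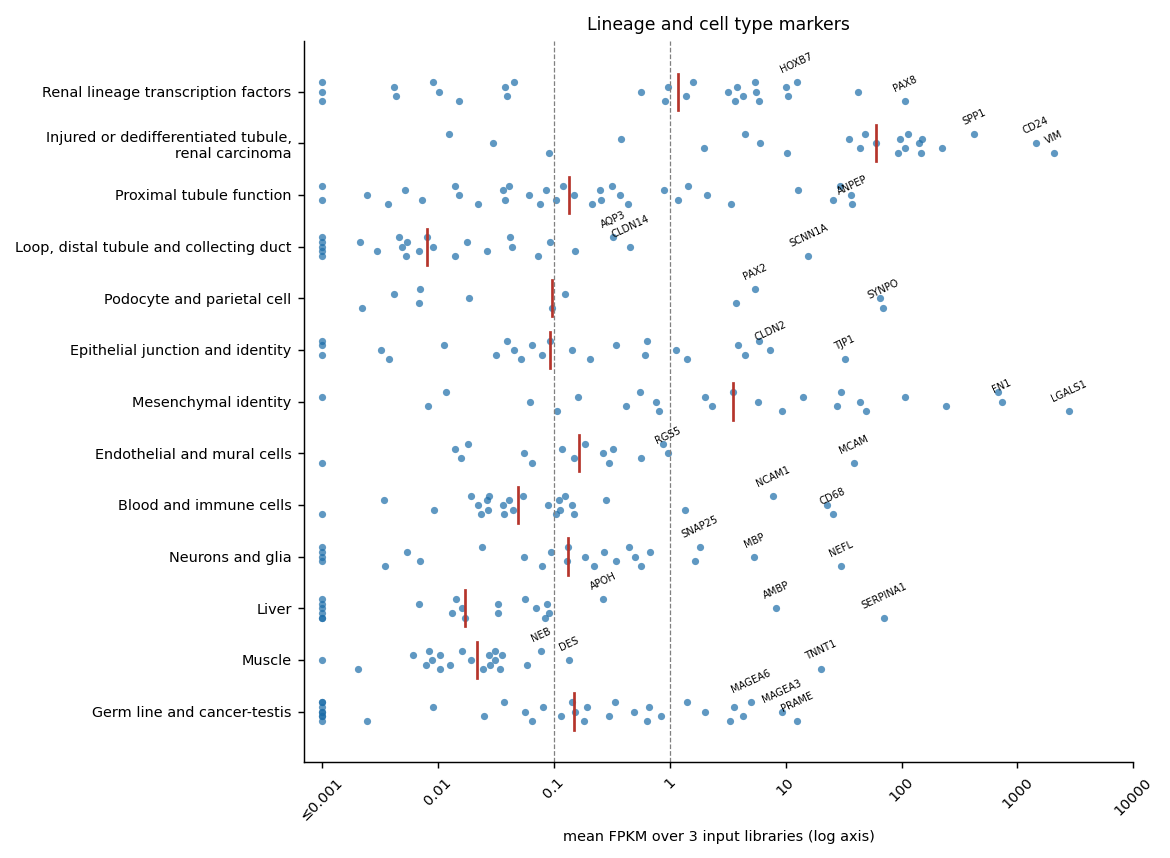
Mean FPKM over the 3 input libraries (log axis) of each gene of 13 marker lists, 1 point per gene, with the list median as a red bar and some of the highest members named. Medians of the injured tubule and renal carcinoma list (60.5 FPKM), the mesenchymal list (3.54 FPKM) and the renal transcription factors (1.19 FPKM) lie right of 1 FPKM, and that of the loop, distal tubule and collecting duct list (0.00803 FPKM) is the lowest.

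Mesenchymal genes stood above epithelial junction genes. Of 25 mesenchymal genes 15 were expressed (60%, against 51.4% of all genes), with a median of 3.54 FPKM. Of 25 epithelial genes 7 were expressed (28%), with a median of 0.0924 FPKM. The keratins KRT19, KRT8 and KRT18 and, on the mesenchymal side, VIM were counted with the injured tubule markers and not in these lists. FN1, fibronectin, had 641, 777 and 792 FPKM, lowest in library 1. TGFBI, a matrix protein induced by TGF-β, had 698, 677 and 680 FPKM, and SPARC, another matrix protein, had 248.95, 237 and 237 FPKM. N-cadherin (CDH2) had 110, 106 and 107 FPKM, while E-cadherin (CDH1) was silent with 5, 9 and 6 reads. The repressors of E-cadherin SNAI1 (27.8 ± 0.892 FPKM), SNAI2 (14.1 ± 0.757 FPKM), ZEB1 (9.41 ± 0.475 FPKM) and ZEB2 (5.84 ± 0.141 FPKM) were all expressed.

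TWIST1 had no read and its relative TWIST2 had 2 reads, both in library 1. GRHL2, OVOL1 and OVOL2, which hold epithelial identity, had no read, and ESRP1, an epithelial splicing factor, had 1 read. Some epithelial genes were kept, among them TJP1 (ZO-1) at 32.6 ± 0.664 FPKM, CLDN2, a claudin of the proximal tubule, at 7.37 ± 0.165 FPKM, the factor ELF3 at 5.91 ± 0.0709 FPKM and the kidney cadherin CDH16 at 4.43 ± 0.587 FPKM. The collagens COL3A1 and COL1A2 were low and highest in library 1, with 55, 12 and 4 reads and with 31, 8 and 4 reads. COL6A3, a collagen outside that list, was well expressed and lowest in library 1, at 62.2, 83.6 and 83.9 FPKM.

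Of 25 tumour suppressors and genes of renal carcinoma lesions 22 were expressed (88%, against 51.4% of all genes). Their median was 9.10 FPKM, against 1.36 FPKM over all genes. The chromatin genes often mutated in clear cell tumours were present, with BAP1 at 19.1, 21.8 and 20.9 FPKM, SETD2 at 12.7, 11.5 and 11.9 FPKM and PBRM1 at 8.17, 9.53 and 9.87 FPKM. SDHB, a subunit of succinate dehydrogenase, was the highest at 66.9 ± 1.71 FPKM. A transcript level does not show whether the protein works. TERT, the catalytic subunit of telomerase, had 0.912, 0.882 and 0.778 FPKM.

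CDKN2A, which encodes the cell cycle inhibitors p16 and ARF, had 8, 10 and 14 reads (0.149 ± 0.0457 FPKM), and CDKN2B beside it had 2 reads in library 2 alone. Their neighbours in 9p21 were read. MTAP had 6.39, 6.43 and 6.01 FPKM and DMRTA1 3.28, 3.43 and 3.45 FPKM. Over the 29 genes placed between MLLT3 and PLAA, 8 were expressed and 20 were silent, 15 of these without a read. Most of the silent ones were type I interferon genes.

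Of 21 glycolysis genes 16 were expressed (76.2%, against 51.4% of all genes), with a median of 33.7 FPKM. GAPDH, ENO1, PKM, LDHA, TPI1 and PGAM1 were among the 100 highest genes. PKM, pyruvate kinase of muscle and tumours, had 975, 1033 and 1008 FPKM, while its liver relative PKLR had 1 read. The gluconeogenic enzymes of the tubule were silent. FBP1, fructose bisphosphatase, had 3 reads and PCK1, cytosolic PEP carboxykinase, had 3 reads, all in library 1, and G6PC1, glucose-6-phosphatase, had 3 reads in library 2. Their relatives outside that pathway or in other compartments were present, PCK2, the mitochondrial form, at 9.53, 9.20 and 9.27 FPKM and G6PC3, the ubiquitous phosphatase, at 42.2, 42.3 and 42.7 FPKM.

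Across 34 genes of gluconeogenesis and tubule metabolism 16 were expressed (47.1%), near the 51.4% of all genes. ASS1 (11.5 ± 0.109 FPKM), CPS1 (8.13 ± 0.210 FPKM) and ASL (3.57 ± 0.283 FPKM), enzymes of the urea cycle, were expressed, and OTC, which acts between CPS1 and ASS1, had no read. AGXT and HAO2, peroxisomal enzymes of glyoxylate, had none either. Fatty acid oxidation was more complete, with 23 of 29 genes expressed and a median of 5.72 FPKM. HADHA and HADHB, the trifunctional protein, had 56.6 ± 0.810 and 36.1 ± 1.24 FPKM. CPT1A, the gate of the pathway, had 2.02, 2.14 and 2.61 FPKM, and PPARGC1A, the coactivator PGC-1α, was silent with 19, 13 and 18 reads.

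Of 35 receptor tyrosine kinases and drug targets 18 were expressed, the same 51.4% as over all genes. AXL and CD70 had overlapping ranges above 200 FPKM, followed by MET, EGFR and EPHA2. EGFR had 65.8, 67.7 and 70.7 FPKM and EPHA2 60.4, 64.4 and 61.6 FPKM. CD274, which encodes PD-L1, had 3.88 ± 0.323 FPKM. INSR, the insulin receptor, read only 0.259 ± 0.0338 FPKM, while IGF1R had 7.53 ± 0.674 FPKM. The vascular receptors KDR, FLT1 and FLT4, targets of renal carcinoma drugs that act on vessels, stood at 0.149, 0.0505 and 0.00614 FPKM. ERBB4 had no read.

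Of 38 cytokine and growth factor genes 27 were expressed (71.1%), against 51.4% of all genes, with a median of 6.499 FPKM. CSF1, the growth factor of macrophages, had 283, 297 and 301 FPKM. CCN1, a matricellular target of YAP, had 164, 158 and 159 FPKM, EREG, an EGFR ligand, 163, 148 and 150 FPKM, and MIF 146, 158 and 140 FPKM. CSF1 stood clear of the other three, and the ranges of CCN1 and EREG and those of EREG and MIF overlapped. CXCL8 had 75.4 ± 2.24 FPKM, TGFB2 75.5 ± 2.77 FPKM, TGFB1 69.3 ± 3.86 FPKM and IL6 7.03 ± 0.261 FPKM. IFNB1 and IFNG had no read.

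Of 32 genes that sense nucleic acids and microbes 14 were expressed (43.8%), not far from the 51.4% of all genes. MAVS, the mitochondrial adaptor of RNA sensing, had 12.2, 13.4 and 13.5 FPKM, STING1 10.1, 10.2 and 9.95 FPKM and CGAS, the DNA sensor, 7.89, 6.92 and 7.52 FPKM. IFIH1, the sensor MDA5, had 2.54 ± 0.179 FPKM, while RIGI was silent with 1, 4 and 7 reads. GSDME and GSDMD, the gasdermins, had 11.96 ± 0.566 and 5.96 ± 0.930 FPKM. PYCARD, the inflammasome adaptor, RIPK3, which drives necroptosis, ZBP1, NOD2 and TLR9 had no read, whereas MLKL, which acts after RIPK3, had 2.84 ± 0.0931 FPKM.

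Of 12 genes of MHC class II presentation 2 were expressed, CD74 at 18.3, 18.0 and 15.3 FPKM and HLA-DMA at 1.64, 2.29 and 1.43 FPKM. HLA-DRA had 1.46, 1.59 and 0.686 FPKM, below the threshold in library 3, and without that library the count was 3. CIITA, the master regulator of the class, was silent or close to it at 0.0612, 0.1003 and 0.0674 FPKM. B2M, the light chain of class I, stood among the 100 highest genes at 528 ± 7.26 FPKM.

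Markers of other cell types were mostly absent. Of 16 genes of endothelial and mural cells, 1 was expressed, the adhesion molecule MCAM at 39.1 ± 0.286 FPKM, and SOX17 had no read. By TPM, FPKM scaled to the same sum in each library, 4 of these genes passed 1, and by CPM 5 did. A TPM of 1 was a lower threshold than 1 FPKM in these libraries. CDH5, the endothelial cadherin, had 2, 4 and 0 reads, and VWF 31, 4 and 4 reads. Over the 15 genes of that list that were not expressed, summed reads were 637, 528 and 435.

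Of 26 blood and immune genes, 4 were expressed, CD68 (25.6 ± 0.654 FPKM), LAPTM5 (22.8 ± 2.40 FPKM), NCAM1 (7.81 ± 0.251 FPKM) and CSF1R (1.36 ± 0.189 FPKM). PTPRC, which defines leukocytes, had 10, 5 and 1 reads, and CD3D, CD3E and CD3G had 7 in all. Of 25 genes of neurons and glia 4 were expressed, led by NEFL, a neurofilament, at 29.99 ± 0.962 FPKM, then MBP, SNAP25 and MAP2, while GAD2, MOG, OLIG2 and SLC17A6 had no read. By TPM 7 neural genes passed 1, by CPM 9 did, and 2 reached 2 FPKM.

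Of 21 liver genes 2 were expressed, SERPINA1, α1-antitrypsin, at 72.2, 69.3 and 70.7 FPKM and AMBP at 8.06, 8.41 and 8.39 FPKM, and ALB had 3 reads, all in library 2. Of 22 muscle genes 1 was expressed, TNNT1, a troponin of slow muscle, at 18.2, 21.8 and 20.7 FPKM. TNNI2 had no read. By CPM 3 muscle genes passed 1. Of 34 germ line and cancer-testis genes 8 were expressed. PRAME had 11.8, 12.4 and 13.3 FPKM and MAGEA3 9.01, 10.5 and 8.27 FPKM. MAGEA6, a close copy of MAGEA3, read 5.04 ± 1.32 FPKM, a value that shared reads make uncertain. DDX4 and DAZL, which define germ cells, had no read.

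HOX genes, which hold the position of a cell along the body, were expressed across all 4 clusters. In all, 29 of 39 were expressed (74.4%, against 51.4% of all genes). The HOXA cluster was expressed throughout, 11 of 11, led by HOXA3 (22.7, 24.4 and 23.6 FPKM), HOXA9 (16.7 ± 0.486 FPKM) and HOXA10 (14.3 ± 0.584 FPKM). In the HOXB cluster 8 of 10 were expressed, led by HOXB9 at 18.7, 17.3 and 16.5 FPKM, and the outermost members HOXB1 and HOXB13 were silent. In the HOXC and HOXD clusters 5 of 9 each were expressed (1 in HOXC at 2 FPKM), led by HOXC10 at 7.04 ± 0.312 FPKM and HOXD11 at 9.81 ± 0.580 FPKM. HOXC12 and HOXC13 had no read, and HOXD12 and HOXD13 were silent.

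Of 48 nuclear receptors 23 were expressed (47.9%), against 51.4% of all genes. The glucocorticoid receptor NR3C1 led at 21.8, 21.0 and 21.9 FPKM. PPARD (18.6 ± 0.504 FPKM), NR2F6 (17.4 ± 1.69 FPKM) and NR2F2 (16.2 ± 0.550 FPKM) followed. The range of PPARD overlapped that of NR2F6, and the range of NR2F6 that of NR2F2. The mineralocorticoid receptor NR3C2 of the distal nephron had 0.110 ± 0.00447 FPKM and the vitamin D receptor VDR 0.487 ± 0.0178 FPKM. ESR1 had 2 reads and PGR 1 read.

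Large families stayed silent as blocks. None of 415 olfactory receptor genes was expressed, 406 were silent and 334 had no read. All 19 late cornified envelope genes, all 17 type I interferon genes, all 22 PRAME family genes and all 15 alpha protocadherins were silent, as were 91 of 94 keratin-associated protein genes and 38 of 42 beta defensins. Of 55 keratins 41 were silent and 6 expressed. Gamma protocadherins had 1 expressed member of 22, PCDHGC3 at 17.7 ± 0.533 FPKM.

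Silent genes and expressed genes both lay in runs. Among 19255 genes placed on the autosomes and X there were 46 runs of 10 or more silent neighbours and 46 such runs of expressed neighbours. The silent runs reached further. The longest was 70 genes on chromosome 11 from OR4B1 to APLNR (chr11:48216810-57237250, GRCh38.p14), of which 62 are olfactory receptors and 61 had no read. The most reads that this whole run gathered in a library was 8. Next came 47 genes on chromosome 1 from FLG2 to S100A7 (chr1:152348735-153460651), the epidermal differentiation genes, with at most 9 reads.

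Further runs held 45, 36 and 30 genes. They reach from OR2C3 to LYPD8 on chromosome 1 (chr1:247524677-248755759), from DEFA6 to SPAG11A among the defensins on chromosome 8, and from AADACL4 to LRRC38 on chromosome 1 (chr1:12644085-13514003), which holds PRAME family genes. The longest run of expressed neighbours was 23 genes on chromosome 14 from PTGER2 to ATG14 (chr14:52314312-55443049). By chromosome, the expressed share ranged from 41.8% on X to 58.2% on chromosome 14, and it was 57.3% on chromosome 3, which carries VHL.

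Silence went with the sequence at the start site. Of the genes, 15397 matched a RefSeq promoter of 300 bases by symbol and 11366 of these had a single promoter. A promoter counted as CpG-rich at an observed over expected CpG of 0.6 or more. That held for 91.0% of promoters of 5978 expressed genes, against 32.9% of 3609 silent genes and 66.9% of all matched genes. The share varied little with level, at 89.2% for means of 1 to under 10 FPKM, 93.5% for 10 to under 100 FPKM and 89.2% for 100 FPKM or more.

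The word TATAAA on the gene's strand between 36 and 19 bases before the start showed another pattern. It was present in 2.07% of expressed and 8.40% of silent genes, but in 12.05% of the 249 genes at 100 FPKM or more and 18.97% of the 58 matched genes among the 100 highest. All matched promoters held it in 4.43%. These are descriptions of words in a window, and a promoter without the word may use another element.

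PAX8 and UMOD show a lineage gene that was high and a nephron segment gene that had no read. Both promoters are below the CpG threshold, with 13 CpG and an observed over expected value of 0.483 for PAX8 and 2 CpG and 0.142 for UMOD. Capitals mark CpG.
PAX8 (chr2:113278872-113279171, minus strand): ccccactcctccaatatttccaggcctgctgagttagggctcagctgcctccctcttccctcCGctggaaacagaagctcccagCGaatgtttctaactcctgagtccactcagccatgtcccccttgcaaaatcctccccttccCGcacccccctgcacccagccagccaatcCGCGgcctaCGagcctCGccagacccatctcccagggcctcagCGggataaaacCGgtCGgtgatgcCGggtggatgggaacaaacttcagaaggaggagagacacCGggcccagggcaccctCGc
UMOD (chr16:20352666-20352965, minus strand): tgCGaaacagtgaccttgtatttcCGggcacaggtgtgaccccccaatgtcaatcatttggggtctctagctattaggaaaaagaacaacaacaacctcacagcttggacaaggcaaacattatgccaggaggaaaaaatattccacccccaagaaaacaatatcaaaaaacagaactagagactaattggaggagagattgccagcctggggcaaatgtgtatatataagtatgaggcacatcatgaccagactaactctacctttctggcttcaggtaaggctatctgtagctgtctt

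The spread between libraries was small for most expressed genes. The median coefficient of variation (CV) over the 3 libraries was 4.47% for expressed genes. The counting error set by each gene's mean reads had a median of 3.26%. A CV estimated from 3 libraries runs below the true value in the median, so this comparison understates the spread beyond counting error. By mean level it was 5.81% for 1 to under 10 FPKM, 3.39% for 10 to under 100 FPKM and 2.94% for 100 FPKM or more, against counting errors of 4.63%, 2.18% and 0.914%. The common biological coefficient of variation, which edgeR estimates with counting error taken out, was 4.52%, and it was 3.23% without library 1, 4.98% without library 2 and 5.05% without library 3. A CV above 20% was seen for 99 of 10286 expressed genes.

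Among 4649 genes with a mean of 10 FPKM or more, the highest library exceeded the lowest 1.07 times in the median, and 5 genes reached 1.5 times. RPS29, a ribosomal protein gene, was the farthest, with 70.7, 89.2 and 241 FPKM from 15291, 19939 and 50867 reads. Its level rests on a gene length of 8206 nt, against 590 nt for RPS18 and 483 nt for RPS25. Where in that length the reads fell was not tested, so they need not all be ribosomal protein mRNA. GPR89B, one of a pair of near-identical copies of a Golgi channel, had 11.7, 23.02 and 24.9 FPKM. DDTL and DDT, neighbouring relatives of a tautomerase, were both highest in library 1, DDTL at 20.7, 12.2 and 14.3 FPKM and DDT at 29.8, 21.0 and 22.3 FPKM.

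BOLA2-SMG1P6, NBPF26, NDUFAB1, AHNAK, H4C16 and POP5 completed the 10 farthest, at 1.65, 1.53, 1.497, 1.45, 1.43 and 1.41 times. BOLA2-SMG1P6 and NBPF26 belong to duplicated segments and H4C16 to the histone genes, where reads can be shared among copies. AHNAK, a giant scaffold protein gene of 19220 nt, had 85.9, 123.2 and 124 FPKM, lowest in library 1. Of the 17 genes of 16000 nt or more at this level, 12 were lower in library 1 than the mean of libraries 2 and 3, with a median log2 ratio of -0.06. The same held for 697 of 1083 genes under 2000 nt, with a median of -0.03, and the medians of the classes between were -0.01, 0.00 and -0.03. The class medians of this ratio did not follow length in 1 direction. Some long genes beside AHNAK were still lower in library 1 by more than these medians. PRKDC (13639 nt) had 45.9, 61.2 and 62.6 FPKM and TRRAP (12755 nt) 8.06, 10.8 and 11.2 FPKM. UBR4 (19580 nt) had 8.78, 11.6 and 11.7 FPKM. Genes of 8000 to under 16000 nt numbered 385, and 230 of them were lower in library 1. Whether wide spread went with length among single genes was not tested.

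**Figure D5:**
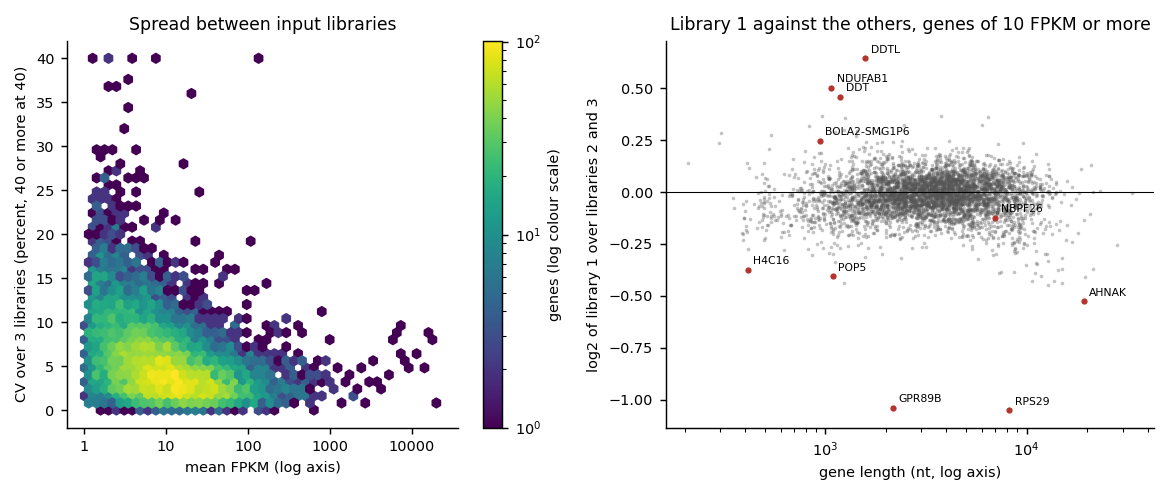
Left, the CV over the 3 input libraries (percent, with 40 or more drawn at 40) against mean FPKM (log axis) for expressed genes, coloured by the number of genes per cell on a log scale; most genes lie below 10%. Right, log2 of library 1 over the mean of libraries 2 and 3 against gene length (log axis) for genes of 10 FPKM or more, with the 10 genes of farthest spread in red; RPS29 and GPR89B lie near -1, and AHNAK at -0.53.

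The genes the study is named for were expressed, apart from 1. IGF2BP2, the m6A reader that was precipitated, had 30.4, 29.3 and 29.9 FPKM and exceeded IGF2BP3 2.15 ± 0.0124 times. IGF2BP1, an oncofetal relative, had 0.453, 0.409 and 0.388 FPKM and was not expressed by the threshold. TGFBR2, the type II TGF-β receptor, had 50.4, 47.1 and 48.3 FPKM and TGFBR1, the type I receptor, 8.17, 7.88 and 8.503 FPKM. Among the SMADs, which carry the signal to the nucleus, SMAD3 had 30.02 ± 0.501 FPKM, SMAD4 6.07 ± 0.118 FPKM and SMAD2 3.06 ± 0.0394 FPKM. SMAD2 levels per length rest on a gene length of 35403 nt, against 2848, 2985 and 2754 reads.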

How the data were processed

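The 3 input libraries of 786-O cells were described, each placed by its title. The labels' protocols give RNAiso Plus for the RNA and Tru-seq for the libraries. Tools recorded in the submitters' processing notes are fastp (0.23.2), STAR (2.7.10a), featureCounts and DESeq2, and the recorded build is hg38. Which annotation was counted, whether strand was used and how overlapping or multiply aligned reads were treated is not given in the sources used here. Antisense, overlapping and near-identical genes are therefore uncertain.

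The authors deposited raw read counts for 20020 gene symbols and, for the same genes, FPKM values. Counts divided by FPKM and by the library total gave 1 whole gene length for each of the 16937 genes with a read, to within 2.87e-09 nt. Levels are the deposited FPKM, with the SD over 3 libraries. Symbols were placed on RefSeq GRCh38.p14 by direct match, which 19304 had. A further 111 matched only by synonym and were not placed. Counts were scaled with TMM in edgeR 4.0.16 (R 4.3.3) to estimate the common biological coefficient of variation, a step tested on simulated data. There is 1 group, so no test between groups was made.

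Named were the 20 highest genes, from each of 30 lists its defining members, up to 4 highest and up to 2 without a read, the 10 genes of farthest spread at 10 FPKM or more, the ends of the 5 longest silent runs and the genes of the study's title. Other genes were named after their values were seen, for their role or their level. Members and lists were chosen with earlier results of these data known. Alternatives changed the threshold, the unit, the scaling, the promoter threshold or left out a library. Some genes that this rule names are not reported here.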

Additional observations from a re-analysis of the deposited data

How the results depend on the processing

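Of 258 alternative values, 240 stayed within bounds and 18 did not. The bound was a change of at most 1.5-fold for counts, CpG-rich shares and coefficients of variation, and 1 SD between libraries for the share of the 100 highest genes and the ratio of EPAS1 to HIF1A. All 90 list counts taken without a library stayed within 1.5-fold, MHC class II reaching it with 3 genes without library 3, against 2. Leaving out each library in turn gave 10335 to 10352 expressed genes, 6717 to 6796 silent genes, a share of 50.2% to 51.0% for the 100 highest genes and 45 to 49 silent runs. Without a library the median CV was 3.01% to 3.97%, and a median CV runs lower when fewer libraries enter it. The common biological coefficient of variation was 3.23% to 5.05% and the ratio of EPAS1 to HIF1A 0.746 to 0.784. The CpG-rich share was 90.8% to 90.9% for expressed genes and 32.9% to 33.0% for silent genes.

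Demanding no read left 3083 silent genes and 18 silent runs, fewer by construction. The share of the 100 highest genes was 28.1% without mitochondrial mRNAs and 28.3% of reads. By reads the ratio of EPAS1 to HIF1A was 0.918. Over all genes with a read the median CV was 7.71%. At an observed over expected CpG of 0.75, 76.4% of promoters of expressed genes and 21.5% of those of silent genes were CpG-rich. List counts that moved were small. With TPM, 2 genes of the loop, distal tubule and collecting duct, 4 endothelial and 7 neural genes passed. With CPM, 2, 5 and 9 of these lists and 3 muscle genes passed. At 0.5 FPKM 3 endothelial genes passed, and at 2 FPKM 1 gene of MHC class II, 2 neural and 1 HOXC gene. Summed FPKM was 415290, 409391 and 405518 in libraries 1, 2 and 3, below the sum to which TPM is scaled. A TPM of 1 was therefore a lower threshold than 1 FPKM. The shifts were not tested beyond the change of unit or threshold.

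No paired analysis was possible because only input libraries were used and no groups were compared. Depth limits genes with a few reads, whose order between libraries is not settled by counting error alone, and 3 libraries give no firm estimate of a single gene's SD.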

Other observations

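Some further families showed a few strong members among many silent ones, and others were mostly expressed. Over all genes 51.4% were expressed and 32.9% silent. Of 95 genes named KCN for potassium channels 10 were expressed and 64 silent, led by KCNIP3 at 20.4, 21.1 and 20.9 FPKM and by KCNJ16, an inward rectifier of the renal tubule, at 18.6, 16.6 and 17.0 FPKM. Of 56 cytochrome P450 genes 7 were expressed and 37 silent, led by CYP1B1, a target of the aryl hydrocarbon receptor, at 15.6, 15.5 and 14.6 FPKM. Among 22 SLC22 transporters of organic ions 4 were expressed, with SLC22A18 at 8.07 ± 0.411 FPKM and the carnitine transporter SLC22A5 at 4.32 ± 0.387 FPKM. None of 16 chemokine receptors was expressed. Of 12 annexins 8 were expressed, with ANXA2, a membrane-binding scaffold, at 655, 667 and 645 FPKM. CTSD, a lysosomal protease, had 273, 276 and 263 FPKM. Proteasome subunits were expressed in 36 of 39 cases, with a median of 34.8 FPKM.

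Reads at trace level were not the same in the 3 libraries. The genes named in this paragraph were chosen after their values were seen, as those with at least 12 reads in a library and, after scaling to equal depth and adding 1 read, at least 3 times the higher of the other libraries. There were 19 such genes in library 1, 25 in library 2 and 7 in library 3, which held 0.00237%, 0.00219% and 0.000625% of the reads. In library 1 they included DES (22, 0 and 2 reads), VWF (31, 4 and 4 reads), MGP (23, 3 and 0 reads), PRELP (32, 3 and 5 reads), COL3A1 (55, 12 and 4 reads), DCN (46, 12 and 1 reads) and C1QB (18, 5 and 1 reads). Others were of unlike kinds, among them GAGE12G (109, 34 and 26 reads).

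In library 2 they included F5 (2, 61 and 1 reads), MT1M (1, 32 and 0 reads), SLC22A2 (1, 29 and 2 reads), SLC5A12 (1, 19 and 1 reads), ACSM2B (0, 12 and 1 reads), GLYAT (3, 18 and 2 reads), BBOX1 (1, 16 and 3 reads) and LRP2 (24, 112 and 18 reads). Of these SLC22A2, SLC5A12 and LRP2 are in the proximal tubule list. GLYAT is in the list of gluconeogenesis and tubule metabolism and ACSM2B in that of fatty acid oxidation. In library 3 the farthest was CRP, the acute-phase protein of liver, with 0, 0 and 46 reads. The fibrinogen genes FGA (0, 0 and 4 reads), FGB (5, 1 and 14 reads) and FGG (0, 0 and 6 reads) were also highest there, while ALB had 0, 3 and 0 reads and APOA1 none. Where these reads came from was not tested.

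Over the genes of a list that were not expressed, summed reads in libraries 1, 2 and 3 were 110, 103 and 69 for the loop, distal tubule and collecting duct, 467, 370 and 326 for the mesenchymal list, 637, 528 and 435 for endothelial and mural cells, 95, 92 and 80 for blood and immune cells, 218, 184 and 189 for muscle and 21, 52 and 59 for liver.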
